A study of Mus musculus with 12 samples.

Results

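The 10 genes described here encode 8 matrix metalloproteinases (Mmp2, Mmp3, Mmp8, Mmp9, Mmp12, Mmp13, Mmp14 and Mmp19) and 2 of their tissue inhibitors (Timp1 and Timp2). They were chosen by name, among 34989 genes listed in RNA from mouse melanomas. All 10 passed the filter on low counts, as did 16027 genes in all. The 12 libraries carry the label tumor associated macrophages and fall into 4 groups of 3. Control mice had neither agent. CD40 agonist mice received FGK4.5, an antibody that switches on the receptor CD40, by intraperitoneal injection of 10 mg/kg every 3 days, for up to 10 doses. CSF1Ri mice ate chow with 600 mg/kg of PLX6134, which the labels call CSF1Ri and which is taken to inhibit the receptor for CSF1, and CSF1Ri + CD40 agonist mice, called the combination here, had both. The vehicle protocol names PBS and normal chow, without saying which samples had which. All mice carried Tyr::CreER, an inducible Cre driven by the tyrosinase promoter of pigment cells, with which tumors were induced locally. The full genotype is not reported here, and the mice were matched for an age that the labels do not give. Dosing started on day 30 after induction, with tumors under 100 mm3 in total, and ended after 30 days or at 2 cm3. Each library came from a pool of at least 3 tumors. These p-values therefore measure the spread between pools.

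Matrix metalloproteinases are zinc-dependent proteases that cleave collagens, elastin and other proteins of the matrix between cells, and most are secreted as inactive precursors that other proteases cut. Timp proteins bind the active site and block it, so the balance of both is held to set how far matrix is degraded. Macrophages are a known source of Mmp12, while neutrophils store Mmp8 and Mmp9 in granules and fibroblasts make Mmp2, Mmp3 and Mmp13.

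The labels give no sorting gate, so markers of 12 cell types were measured beside the members. Of 14 macrophage markers, in CPM (counts relative to the library total, after TMM scaling), Adgre1 ranged from 194 to 298 and Cd68 from 521 to 765 over the 12 libraries, while Apoe ranged from 11.4 to 424 and C1qb from 3.37 to 299. In edgeR 1 of the 14 was called in any comparison, Aif1, which rose by 1.64 on the log2 scale in the combination against CSF1Ri (adjusted p = 0.0122). Total estimated counts per library lay between 26316328 and 39818657. All combination libraries, at 34168389 or more, were deeper than every library of the other groups, which reached at most 33948213. On the second principal component combination replicate 2 stood at -105.8 against -32.6 and -55.6 for the others of its group, and CSF1Ri replicate 3 at 32.7 against -22.2 and -24.0. These are the libraries said below to stand apart. Some results, among them those of Mmp8, Mmp12, Mmp13 and Timp1, are given with and without them. On the third component CD40 agonist replicate 1 stood at -116.4 against -12.8 and 3.71 for the others of its group. That library was left out only in the refits that left out 1 library at a time. In RNA of such mixtures, fewer cells of a type and less RNA per cell cannot be told apart.

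Mmp13, Mmp12, Mmp3 and Mmp8 lie in this order on the plus strand of mouse chromosome 9, with Mmp1a and Mmp10 between Mmp3 and Mmp8 on the same strand. Mmp13 spans chr9:7272514-7283331, Mmp12 chr9:7344381-7369499, Mmp3 chr9:7445822-7455975 and Mmp8 chr9:7558456-7568485, as gene spans of GENCODE M21 on GRCm38. The 250 bases upstream of their starts are shown because these genes of 1 cluster had unlike patterns over the groups. RefSeq promoters of build GRCm38.p6 are printed on the plus strand, 5′ to 3′, with capitals for matches to TGANTCA, the AP-1 motif bound by Fos and Jun proteins, and to TATAAA, the TATA box.
Mmp13 (chr9:7272264-7272513): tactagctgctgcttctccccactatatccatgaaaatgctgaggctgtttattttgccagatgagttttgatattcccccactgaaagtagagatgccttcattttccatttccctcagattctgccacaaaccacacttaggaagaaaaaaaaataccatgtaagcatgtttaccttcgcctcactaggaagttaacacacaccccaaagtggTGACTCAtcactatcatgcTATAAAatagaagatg
Mmp12, downstream start (chr9:7347124-7347373): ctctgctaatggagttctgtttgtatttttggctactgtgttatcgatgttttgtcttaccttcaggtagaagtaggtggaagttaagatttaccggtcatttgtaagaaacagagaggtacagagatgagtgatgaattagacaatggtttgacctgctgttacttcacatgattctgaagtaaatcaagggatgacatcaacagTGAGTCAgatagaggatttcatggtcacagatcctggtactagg
Mmp3 (chr9:7445572-7445821): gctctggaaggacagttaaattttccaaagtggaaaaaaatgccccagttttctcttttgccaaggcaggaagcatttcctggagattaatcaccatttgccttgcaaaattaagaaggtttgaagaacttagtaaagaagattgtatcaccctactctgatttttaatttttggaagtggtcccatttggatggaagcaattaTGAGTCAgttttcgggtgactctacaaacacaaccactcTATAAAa
Mmp8 (chr9:7558179-7558428): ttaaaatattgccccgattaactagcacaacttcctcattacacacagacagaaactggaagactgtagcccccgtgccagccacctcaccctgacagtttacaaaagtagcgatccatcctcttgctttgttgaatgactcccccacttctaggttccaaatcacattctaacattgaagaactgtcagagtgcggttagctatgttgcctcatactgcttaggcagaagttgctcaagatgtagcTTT
The AP-1 match was TGACTCA at -35 in Mmp13, TGAGTCA at -44 in Mmp12 and TGAGTCA at -46 in Mmp3, counted from the first base of the match to the RefSeq start. The Mmp8 window held no AP-1 match. Nor did the window of the upstream Mmp12 start, which is not printed and held no TATAAA either. TATAAA stood at -16 in Mmp13 and at -7 in Mmp3. In Mmp12 it stood at 5, after the start and so outside the bases printed. The capitals at the end of the Mmp8 sequence are the first bases of TTTATA, which is TATAAA on the minus strand and starts at -3. Promoters of 7 of the 10 members, in 8 windows of 300 bases (250 before and 50 after the start), were matched by symbol. TGANTCA, searched on both strands, was in 3 of these 8 windows and in 7.81% of the 32851 windows of the table. TATAAA, also searched on both strands and with no overlap of the AP-1 matches, was in 4 of 8 and in 13.6% of all. GGAA, the core bound by Ets factors, was in all 8 and in 96.0% of all. These matches are descriptions of the letters and do not show binding. The promoters of Mmp2, Mmp9 and Mmp19 were not matched.

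The chromosome 9 cluster holds 10 Mmp genes over 427 kb, of which 5 passed the filter. Per length, in TPM (a level relative to transcript length and library total), Mmp12 had the highest mean of them over the 12 libraries at 138, ahead of Mmp8 at 57.0, Mmp13 at 9.71 and Mmp3 at 0.747. Mmp7, which also passed, had a mean of 0.185 TPM, and Mmp10 had 0.189 TPM without passing. Of the members elsewhere, Timp1 (chromosome X, 20870166 to 20874735) had a mean of 56.7 TPM, Mmp19 (chromosome 10, 128790910 to 128800824) 20.3 TPM and Mmp14 (chromosome 14, 54431612 to 54445364) 16.5 TPM. Mmp9 (chromosome 2, 164940780 to 164955850) had a mean of 14.2 TPM, Timp2 (chromosome 11, 118301069 to 118355740, minus strand) 8.73 TPM and Mmp2 (chromosome 8, 92827291 to 92853420) 2.57 TPM. All but Timp2 lie on the plus strand. Mmp2 and Mmp3 were thus the lowest of the members.

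**Figure D1:**
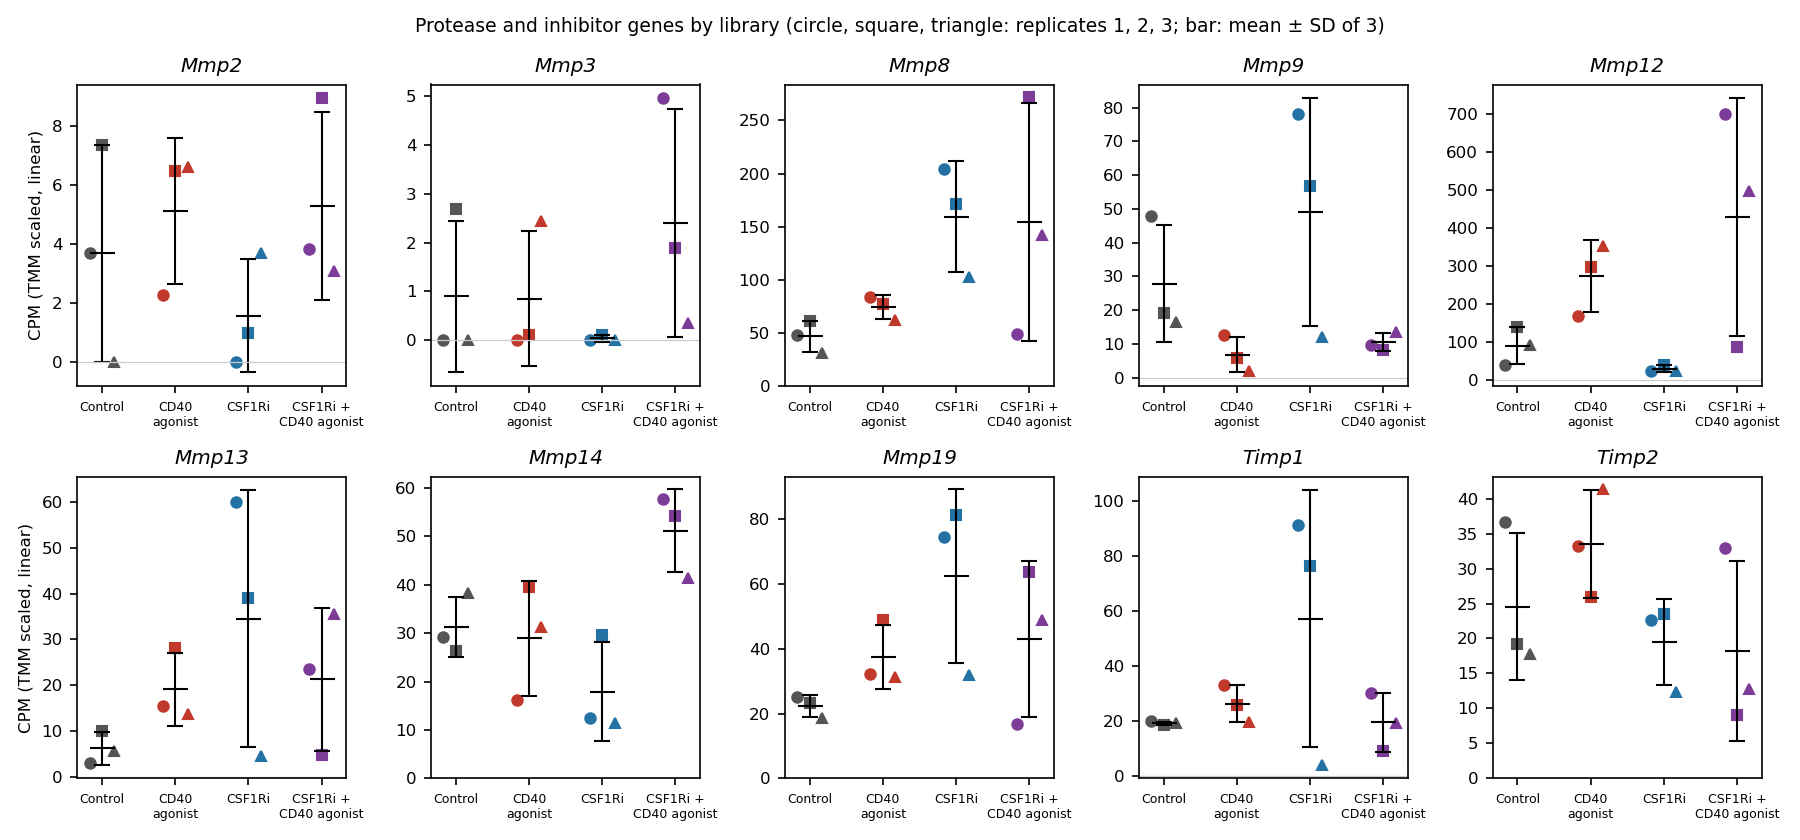
CPM on a linear axis for each of the 10 genes in the 12 libraries, with circles, squares and triangles for replicates 1, 2 and 3 and bars for the mean and SD of 3. Mmp12 lies between 22.6 and 39.5 CPM with CSF1Ri and between 87.5 and 700 CPM with the combination, while Timp1 in CSF1Ri replicate 3 lies at 4.31 CPM against 91.3 and 76.7 CPM in its group.

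Mmp12, the macrophage elastase, was the only member that edgeR called at an adjusted p below 0.05 in any comparison with all 12 libraries, and it rose when the antibody was added to the chow. It stood at 24.4, 39.5 and 22.7 CPM in CSF1Ri replicates 1, 2 and 3. In the combination it stood at 700, 87.5 and 498 CPM. The groups did not overlap, although combination replicate 2 lay closer to CSF1Ri than to the rest of its own group. Means were 28.9 ± 9.23 CPM (SD, n = 3) with CSF1Ri and 428 ± 312 CPM with the combination. The log2 fold change was 3.89 ± 0.71 (SE), with an adjusted p of 0.0259 in edgeR's quasi-likelihood test over all genes, higher in 3 of 3 libraries. In this comparison 1.94% of the genes tested were called, 1.24% higher and 0.699% lower, so 1 of 10 members was called against that background. DESeq2 called 3 members there (Mmp9, Mmp12 and Mmp14), against 9.94% of its genes. The call was lost with limma voom (3.56, adjusted p = 0.0852), with the replicate number as a block (3.97, edgeR adjusted p = 0.0650) and, with edgeR, without combination replicate 1 (3.35, adjusted p = 0.0657) or replicate 3 (3.77, adjusted p = 0.0547). It was also lost without CSF1Ri replicate 1 (3.80, adjusted p = 0.101), replicate 2 (4.20, adjusted p = 0.0925) or replicate 3 (3.76, adjusted p = 0.0652), again with edgeR. Without combination replicate 2 the edgeR value was 4.38 (adjusted p = 0.00717), and over all alternatives the log2 fold change stayed between 3.35 and 4.38.

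Against Control, Mmp12 was higher with the antibody and lower with the chow, but neither difference passed. Control libraries held 39.4, 138 and 92.6 CPM. CD40 agonist libraries held 168, 297 and 353 CPM, all above every Control library. CSF1Ri replicate 2, at 39.5 CPM, lay within the Control range, next to Control replicate 1. In edgeR the log2 fold change was 1.60 ± 0.65 under the antibody (adjusted p = 0.614), -1.64 ± 0.65 under the chow (adjusted p = 0.467) and 2.25 ± 0.66 under both agents (adjusted p = 0.153). Without combination replicate 2 the last of these was 2.73 (edgeR adjusted p = 0.0333), and DESeq2 called it with all 12 libraries (2.26, adjusted p = 0.0269). The interaction, which is the antibody's effect with the chow minus its effect without it, was 2.29 ± 0.91 (edgeR adjusted p = 0.539). Ordered by mean CPM the groups ran CSF1Ri, Control, CD40 agonist and combination, and no neighbours in that order differed at an adjusted p below 0.05. The test for any difference among the 4 groups gave Mmp12 an unadjusted p of 0.000783 and an adjusted p of 0.0570 in edgeR.

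The summed markers of pigment cells had the same order of group medians as Mmp12. The 7 melanocyte and melanoma markers summed to 11.1 to 15.6 CPM with CSF1Ri, 18.1 to 24.7 CPM in Control, 34.9 to 59.8 CPM with the CD40 agonist and 26.6 to 105 CPM with the combination. Within the combination their sum was 105, 26.6 and 54.8 CPM in replicates 1, 2 and 3, the same order of replicates as for Mmp12. With the CD40 agonist it was 59.8, 34.9 and 40.3 CPM, so that replicate 1, highest in these markers, was lowest in Mmp12 at 168 CPM. In Control and with CSF1Ri the order of replicates also differed from that of Mmp12. Mlana, Tyrp1 and Sox10 were at 0 in all 3 CSF1Ri libraries and Sox10 at 0 in all 3 Control libraries. The 14 macrophage markers, none of them at 0 in a whole group, summed to 17663 to 21087 CPM in Control and 16775 to 21099 CPM with the CD40 agonist. Their sum was 23052 to 28516 CPM with CSF1Ri and 15254, 35722 and 18498 CPM in combination replicates 1, 2 and 3. Most of that sum was Lyz2, with a mean of 15680 CPM in Control, and it was highest in the combination library lowest in Mmp12. The mean log2 CPM of the same 14 markers, in which each weighs alike, correlated with Mmp12 at 0.82 over the 12 libraries, and that of the melanocyte and melanoma markers at 0.94. With CSF1Ri against Control 5 of the 14 had a positive log2 fold change (among them Lyz2 at 0.46 and Adgre1 at 0.32) and 9 a negative one (among them C1qb at -3.01 and C1qa at -2.87). In the combination against CSF1Ri 9 were positive and 5 negative. Aif1 stood at 93.2 ± 27.1 CPM with CSF1Ri and 291 ± 33.0 CPM with the combination. The CSF1Ri level of Aif1 lay below Control, with a log2 fold change of -1.12 ± 0.23 (edgeR adjusted p = 0.124). The part of these cell types in the Mmp12 result was not tested.

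The deposited values split Mmp12 among 7 annotated transcripts. Mmp12-204, annotated as a target of nonsense-mediated decay, held 63.7% of the gene's TPM and 70.1% of its estimated counts. The protein-coding Mmp12-203 and Mmp12-202 held 20.9% and 11.6% of TPM, and Mmp12-206, a retained intron, 3.08%. Transcripts annotated as protein coding made up 15.6% to 38.7% of Mmp12 TPM per library. Mmp12-204 followed the group pattern of the gene, with a mean of 11.7 ± 1.71 TPM with CSF1Ri, 37.6 ± 19.6 TPM in Control, 122 ± 46.5 TPM with the CD40 agonist and 180 ± 135 TPM with the combination. Mmp12-203 did so too, at 1.34 ± 1.76, 13.0 ± 10.1, 41.1 ± 16.5 and 60.2 ± 40.9 TPM in the same order. The 5 transcripts that start between 7347374 and 7347406, just after the Mmp12 promoter printed above, held 84.5% of the gene's counts, and the 2 that start between 7344381 and 7344397 held 15.5%. How reads were divided among transcripts that share exons is the quantifier's estimate. The libraries carry no strand, and the Mmp12 span overlaps Mmp1b on the other strand, which held 3 estimated counts over the 12 libraries.

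**Figure D2:**
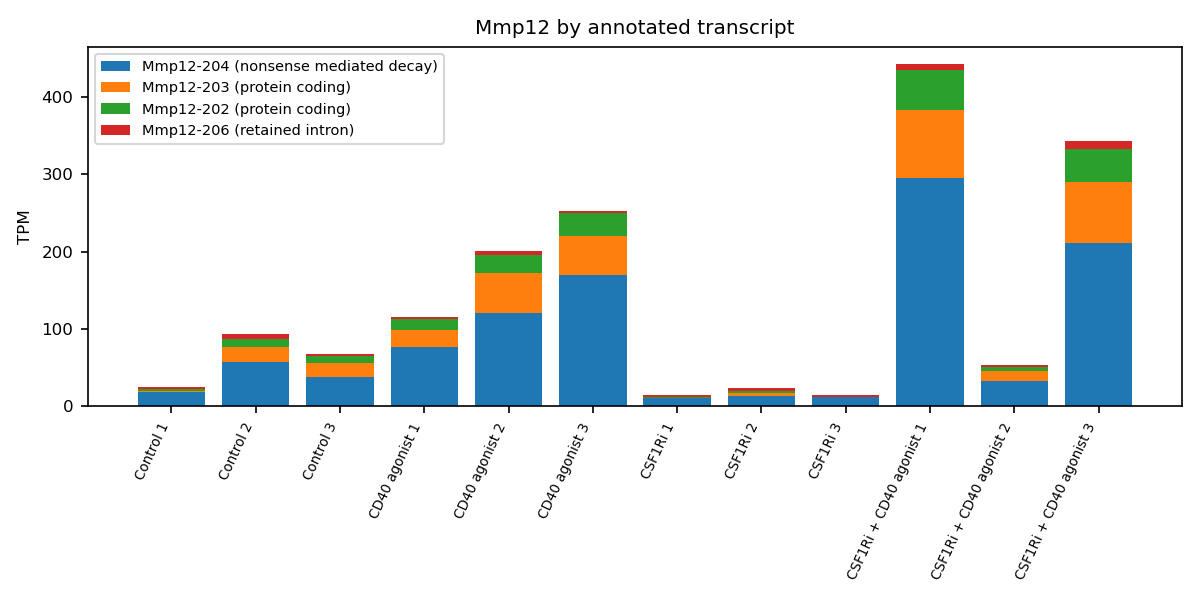
TPM of the 4 main Mmp12 transcripts in each library, stacked on a linear axis from 0. Mmp12-204 is the largest part of each bar and holds 63.7% of the gene's TPM over all libraries.

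Mmp8, the neutrophil collagenase, was higher than Control in all 3 CSF1Ri libraries, without passing the threshold. Control libraries held 48.0, 61.0 and 31.4 CPM and CSF1Ri libraries 204, 172 and 103 CPM. CD40 agonist libraries held 83.4, 77.4 and 62.0 CPM, just clear of Control. Combination libraries spread widely, at 49.1, 272 and 143 CPM, and overlapped every other group. The log2 fold change in edgeR was 1.77 ± 0.50 with CSF1Ri (adjusted p = 0.290) and 1.72 ± 0.50 with the combination (adjusted p = 0.153). The latter was 1.03 without combination replicate 2, so that this library moved it by over 1.5 times, and 2.15 without replicate 1 (edgeR adjusted p = 0.0463). DESeq2 called both differences, at 1.77 (adjusted p = 0.0123) and 1.74 (adjusted p = 0.00822), and edgeR called the first without both libraries that stood apart (2.00, adjusted p = 0.0413).

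Markers of neutrophils and monocytes were measured beside Mmp8. The 11 neutrophil markers summed to 1290, 612 and 511 CPM in Control, 534, 385 and 404 CPM under the antibody, 2993, 2175 and 672 CPM under the chow, and 828, 1320 and 2453 CPM under both agents. With CSF1Ri against Control 5 of the 11 had a positive and 5 a negative log2 fold change, with a median of 0. Ly6g (-1.94), Ltf (-1.86) and Camp (-1.81) were among the negative ones and S100a8 (1.42), S100a9 (1.43) and Retnlg (1.13) among the positive ones, none of them called. Ly6g, a defining marker of mouse neutrophils, was at 0 in all 3 CD40 agonist libraries, and Elane at 0 in all 3 libraries of Control and of CSF1Ri. The 9 monocyte markers, none at 0 in a whole group, summed to 4977 to 5986 CPM in Control, 4872 to 6425 CPM under the antibody, 5777 to 8318 CPM under the chow and 4996 to 15503 CPM under both agents. The highest of these was combination replicate 2, which was also the highest library for Mmp8. Their part in the Mmp8 values was not tested.

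Mmp9, the gelatinase B of neutrophils and macrophages, was lower in both groups given the antibody, without passing the threshold. Control libraries held 47.8, 19.2 and 16.5 CPM, and CSF1Ri libraries 78.2, 56.9 and 12.2 CPM. CD40 agonist libraries held 12.5, 5.93 and 2.09 CPM and combination libraries 9.77, 8.30 and 13.7 CPM. Both antibody groups lay below every Control library, while CSF1Ri replicate 3 lay within the range of the combination. The edgeR log2 fold change was -2.02 ± 0.74 for the CD40 agonist against Control (adjusted p = 0.581) and -2.21 ± 0.74 for the combination against CSF1Ri (adjusted p = 0.150). DESeq2 called the latter (-2.20, adjusted p = 0.0174). Leaving out 1 library at a time, the latter ran from -2.66 to -1.70 in edgeR (adjusted p between 0.0776 and 0.353). Control replicate 1 and CSF1Ri replicates 1 and 2, the 3 libraries highest in Mmp9, were among the 5 highest in summed neutrophil markers, but the other two of those 5 were combination replicates 3 and 2, with Mmp9 at 13.7 and 8.30 CPM. The mean log2 CPM of the neutrophil markers correlated with Mmp9 at -0.11 and that of the macrophage markers at -0.72. Over the 12 cell types the values ran from -0.82 for fibroblasts to 0.57 for mast cells, basophils and eosinophils. Retnlg, the 1 neutrophil marker that edgeR called, had a mean of 177 ± 51.5 CPM in Control, 20.4 ± 7.22 under the antibody, 387 ± 160 under the chow and 24.2 ± 11.9 under both agents. It fell in the combination, by 2.87 on the log2 scale against Control (edgeR adjusted p = 0.0228) and by 4.00 against CSF1Ri (edgeR adjusted p = 0.00837). Most of the 11 neutrophil markers went the other way in the combination against Control, where 9 were positive and 2 negative (median 1.40). Against CSF1Ri 6 were positive and 5 negative (median 2.74). The part of these cell types in the Mmp9 values was not tested. Of Mmp9 TPM, 59.5% lay on the protein-coding Mmp9-201 and 36.9% on the processed transcript Mmp9-204. Mmp9-201 alone had a mean of 9.33 TPM in Control, 2.66 under the antibody, 18.4 under the chow and 3.43 under both agents.

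**Figure D3:**
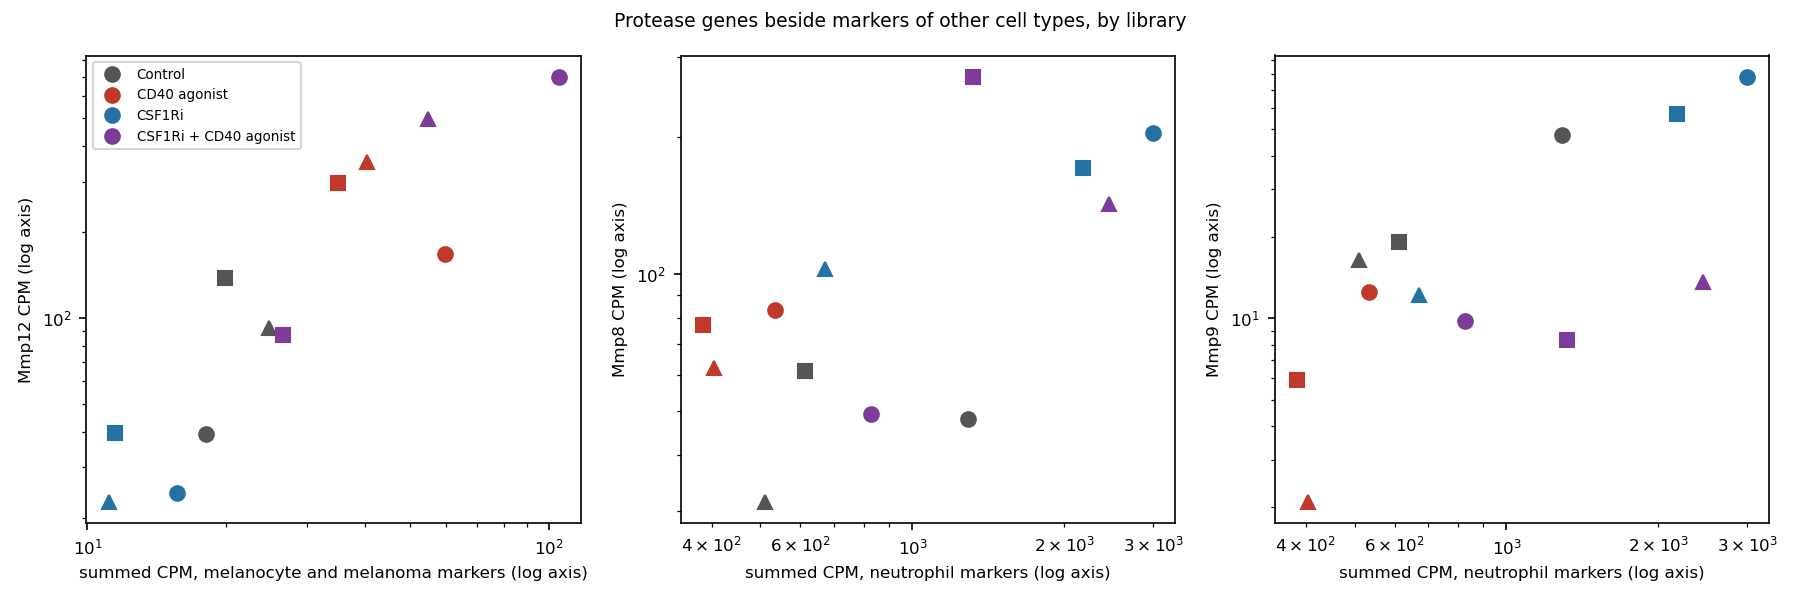
Mmp12 against the summed CPM of melanocyte and melanoma markers, and Mmp8 and Mmp9 against that of neutrophil markers, in the 12 libraries on log axes, with circles, squares and triangles for replicates 1, 2 and 3. The library at 105 CPM of melanocyte and melanoma markers, combination replicate 1, is the highest in Mmp12 at 700 CPM.

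Mmp13, the main collagenase of mice, had wide spread within the groups given the chow. Control libraries held 2.95, 10.0 and 5.73 CPM. CD40 agonist libraries held 15.4, 28.2 and 13.7 CPM and did not overlap Control. CSF1Ri libraries held 60.0, 39.1 and 4.52 CPM, and combination libraries 23.6, 4.71 and 35.6 CPM. In each of these groups the library that stood apart was the low one and lay within the Control range. The log2 fold change with CSF1Ri was 2.47 ± 0.90 (edgeR adjusted p = 0.405) and rose to 2.99 without both libraries (edgeR adjusted p = 0.0236).

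Mmp14, a membrane-anchored protease that activates Mmp2, was highest in the combination, also without passing. It stood at 57.7, 54.3 and 41.4 CPM there, above every library of the other 3 groups. Control libraries held 29.3, 26.3 and 38.2 CPM, CD40 agonist libraries 16.2, 39.5 and 31.2 CPM and CSF1Ri libraries 12.6, 29.6 and 11.4 CPM. Against CSF1Ri the log2 fold change was 1.52 ± 0.41 (edgeR adjusted p = 0.0853), which DESeq2 called (1.53, adjusted p = 0.00530). The interaction was 1.63 ± 0.57 (edgeR adjusted p = 0.475). Fibroblasts also make Mmp14, and the 11 fibroblast markers summed to 107 to 137 CPM with the combination, 80.0 to 168 CPM in Control, 60.8 to 180 CPM with the CD40 agonist and 36.6, 39.4 and 165 CPM in CSF1Ri replicates 1, 2 and 3. Dpt was at 0 in all 3 Control libraries. The part of those cells in the Mmp14 values was not tested.

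Mmp19, a secreted protease of macrophages and other cells, followed Mmp8 across libraries. Control libraries held 25.2, 23.2 and 18.7 CPM, CD40 agonist libraries 32.3, 48.8 and 31.4 CPM and CSF1Ri libraries 74.6, 81.4 and 31.9 CPM. Both single-agent groups lay above every Control library, whereas the combination, at 16.6, 63.8 and 49.0 CPM, overlapped Control. The log2 fold change with CSF1Ri was 1.48 ± 0.47 (edgeR adjusted p = 0.330), called by DESeq2 alone (1.49, adjusted p = 0.0458). Leaving out 1 library at a time, it ran from 1.23 to 1.78 in edgeR (adjusted p between 0.127 and 0.646). Of Mmp19 TPM, 23.0% lay on a retained-intron transcript, Mmp19-202.

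Mmp2, the gelatinase A of stromal cells, and Mmp3, stromelysin 1, were low in every group. Mmp2 ranged from 0 to 7.37 CPM in Control, 2.26 to 6.60 CPM under the antibody, 0 to 3.70 CPM under the chow and 3.09 to 8.95 CPM under both agents. Mmp3 was at 0 in 2 of 3 Control libraries and 2 of 3 CSF1Ri libraries, and the remaining CSF1Ri library held 0.112 CPM. All 3 combination libraries, at 4.96, 1.90 and 0.357 CPM, lay above that. Neither gene reached an unadjusted p below 0.05 in any comparison.

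Of the inhibitors, Timp1 binds most metalloproteinases and is secreted by many cells. It was tight in Control, at 20.0, 18.8 and 19.3 CPM. With CSF1Ri it stood at 91.3, 76.7 and 4.31 CPM, so that this group held both the highest library and the lowest. CD40 agonist libraries held 33.3, 26.1 and 19.9 CPM and combination libraries 30.3, 9.12 and 19.6 CPM. Timp1 was singled out after its values were seen, since its result rests on CSF1Ri replicate 3. With all libraries the log2 fold change was 1.57 ± 0.78 for CSF1Ri against Control (edgeR adjusted p = 0.561) and -1.55 ± 0.78 for the combination against CSF1Ri (edgeR adjusted p = 0.325). Without CSF1Ri replicate 3 these were 2.10 (edgeR adjusted p = 0.0546) and -2.08 (edgeR adjusted p = 0.0361). Without both libraries that stood apart they were 2.11 (edgeR adjusted p = 0.00656) and -1.75 (edgeR adjusted p = 0.0160). Other alternatives made both smaller, to 1.05 and -1.03 without CSF1Ri replicate 1 (edgeR adjusted p = 0.834 and 0.604), and to 0.54 and -0.63 in limma voom (adjusted p = 0.934 and 0.780). CSF1Ri replicate 3 also differed from its group in markers, with fibroblast markers at 165 CPM against 36.6 and 39.4 and neutrophil markers at 672 CPM against 2993 and 2175. The part of those cells in the Timp1 values was not tested.

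Timp2, which both inhibits metalloproteinases and takes part in the activation of Mmp2 by Mmp14, held 36.7, 19.2 and 17.8 CPM in Control and 33.2, 25.9 and 41.3 CPM with the CD40 agonist. It held 22.7, 23.5 and 12.3 CPM with CSF1Ri and 33.0, 9.01 and 12.7 CPM with the combination. Its groups overlapped in every comparison, except that the CD40 agonist libraries all lay above those with CSF1Ri, a pair that was not tested.

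**Figure D4:**
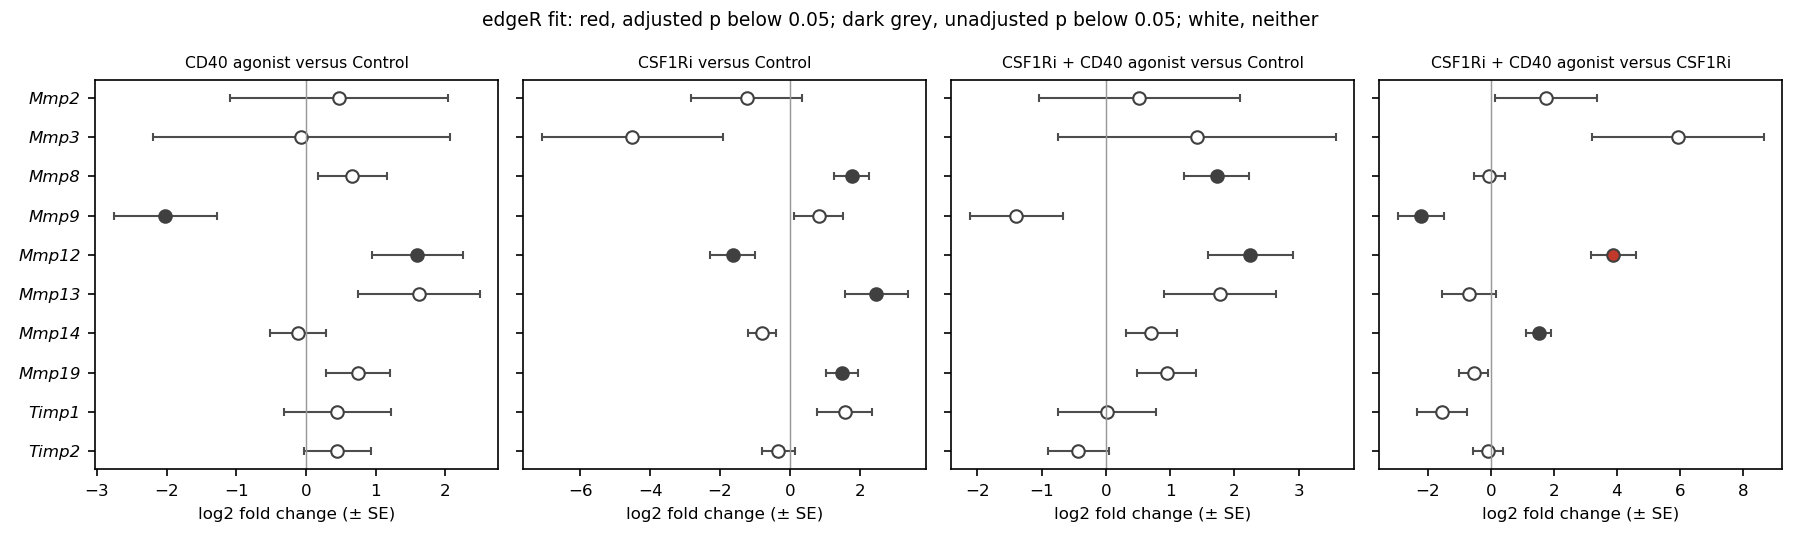
Log2 fold change from the edgeR fit with its SE for the 10 genes in 4 comparisons, on axes of different range, in red for an adjusted p below 0.05, dark grey for an unadjusted p below 0.05 and white for neither. Mmp12 at 3.89 in the combination against CSF1Ri is the only red point.

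Counted over the 10 members, few differences stood out from the background of all genes. With the CD40 agonist against Control, 7 members had a positive and 3 a negative log2 fold change, with a median of 0.46 against 0.01 over all genes. None was called by edgeR, DESeq2 or limma voom, where edgeR called 0% and DESeq2 1.25% of all genes, and 2 members had an unadjusted p below 0.05, against 7.68% of all genes. With CSF1Ri, 5 were positive and 5 negative, the median was 0.24 against -0.01 over all genes, 0 were called by edgeR (2 by DESeq2, 0 by voom) against 0.0125% of genes (2.78% in DESeq2), and 4 had an unadjusted p below 0.05 (Mmp8, Mmp13 and Mmp19 positive, Mmp12 negative) against 9.47%. With the combination against Control, 8 were positive and 2 negative, the median was 0.83 against 0.00 over all genes, 0 were called by edgeR (2 by DESeq2, 0 by voom) against 0.774% (6.24% in DESeq2), and 2 had an unadjusted p below 0.05 against 14.8%. These comparisons share the Control libraries.

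Between the combination and the CD40 agonist, 8 were positive, with a median of 0.41, 0 were called by any of the 3 tools against 0% of all genes in edgeR and 1.73% in DESeq2, and 0 had an unadjusted p below 0.05 against 9.05%. Between the combination and CSF1Ri, 4 were positive and 6 negative, with a median of -0.07 against 0.02 over all genes. There 3 members had an unadjusted p below 0.05, Mmp12, Mmp14 and Mmp9, against 18.3% of all genes. For the interaction 0 were called by any of the 3 tools against 0% of genes in edgeR and 1.14% in DESeq2, and 2 members had an unadjusted p below 0.05 against 8.14%. In the test for any difference 0 were called by edgeR and voom against 1.2% of all genes, and 4 members (Mmp12, Mmp9, Mmp8 and Mmp14) had an unadjusted p below 0.05 against 16.3%. DESeq2 called 4 members in that last test, against 11.5% of its genes.

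Members whose groups did not overlap were read against the same share over all genes. Against Control, 5 members did not overlap with the CD40 agonist (Mmp8, Mmp12, Mmp13 and Mmp19 higher, Mmp9 lower), against 17.1% of all genes. With CSF1Ri there were 2 (Mmp8 and Mmp19 higher) against 15.8%, and with the combination 2 (Mmp14 higher, Mmp9 lower) against 22.3%. The combination lay apart from the CD40 agonist in 1 member (Mmp14, higher) against 13.5%. It lay apart from CSF1Ri in 3 (Mmp3, Mmp12 and Mmp14, higher) against 21.9%.

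Of the 7 cell types whose markers are not given above (endothelial cells, keratinocytes, T cells, B cells, NK cells, dendritic cells, and mast cells, basophils and eosinophils as 1 list), 3 had markers that edgeR called in comparisons of 2 groups. The mast cell, basophil and eosinophil markers, of which 9 of 10 passed the filter, summed to 150 to 218 CPM in Control, 160 to 365 CPM under the antibody, 481 to 681 CPM under the chow and 386 to 641 CPM under both agents, with Epx at 0 in all libraries of Control, of the CD40 agonist and of the combination. All 9 had a positive log2 fold change with CSF1Ri against Control. Cpa3, Fcer1a and Mcpt8 were called higher in the combination against Control, where 5 of the 9 were positive and 4 negative. Il5ra and Ccr3 were called lower in the combination against CSF1Ri, where 3 were positive and 6 negative. Of B cell markers Ms4a1 was lower in the combination against Control, and of NK cell markers Gzma was higher in the combination against CSF1Ri. The monocyte markers Ace and Cd300e were lower in the combination against Control, where 5 of the 9 monocyte markers were positive and 4 negative (median 0.38). The part of these cells in the members' values was not tested.

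Summed per length, the 8 proteases outweighed the 2 inhibitors in all 12 libraries. The ratio of summed Mmp TPM to summed Timp TPM was 2.26, 4.22 and 2.96 in Control and 2.70, 5.50 and 6.35 with the CD40 agonist. It was 1.38, 1.48 and 7.88 in CSF1Ri libraries, and 8.52, 13.9 and 12.6 under both agents. The combination libraries all lay above those of the other 3 groups, and CSF1Ri replicates 1 and 2 below all others, while CSF1Ri replicate 3 lay nearest to the combination. That order did not hold for transcripts annotated as protein coding alone, a restriction chosen after the values were seen. The ratio was then 3.52, 11.2 and 6.61 in combination replicates 1, 2 and 3 and 6.10 in CSF1Ri replicate 3, and at most 3.06 in the other 8 libraries. CSF1Ri replicates 1 and 2 were still the lowest, at 1.16 and 1.22. This ratio was chosen with earlier results known and was not tested. Mmp12 made up 59.9% to 76.6% of the summed Mmp TPM with the CD40 agonist and 5.88% to 13.3% with CSF1Ri. In Control it made up 21.0%, 52.8% and 51.4%, and in the combination 85.3%, 21.4% and 70.1%. Mmp8 was the largest contributor in all 3 CSF1Ri libraries and in combination replicate 2, and Mmp9 in Control replicate 1, at 26.5%.

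**Figure D5:**
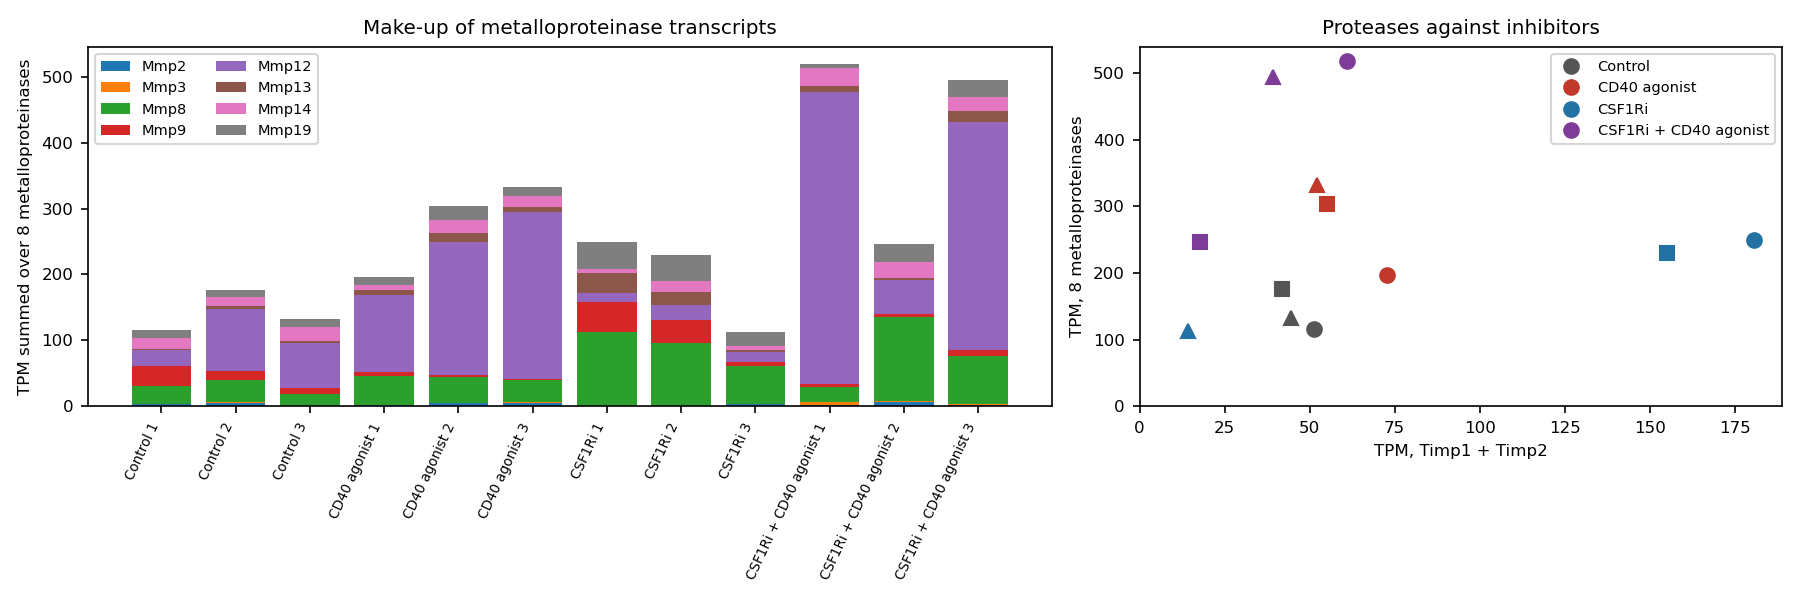
Left, stacked TPM of the 8 proteases in each library on a linear axis from 0. Right, that sum against the summed TPM of Timp1 and Timp2, with circles, squares and triangles for replicates 1, 2 and 3. CSF1Ri replicates 1 and 2 lie far to the right, at 181 and 155 TPM of inhibitors, and the combination libraries lie between 246 and 519 TPM of proteases.

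Correlations of log2 CPM among the members are given as descriptions over the 12 libraries, which share their groups, cell mixture and library scaling. The highest was 0.90 between Mmp8 and Mmp19, followed by 0.76 between Mmp13 and Timp1 and 0.65 between Mmp12 and Mmp14. The lowest was -0.67 between Mmp9 and Mmp12. Over all genes kept, those with a pattern like that of Mmp8 included Vcan (0.949), a matrix proteoglycan, and Hp (0.937), which encodes haptoglobin. For Mmp12 the 3 most alike were Nans (0.931), Stmn1 (0.930) and Lgals1 (0.929). For Timp1 they were Pgf (0.909), Havcr2 (0.882) and Trp53bp2 (0.880). For Mmp13 they included Ccl7 (0.926) and Phax (0.885), and for Mmp14 they were Ndrg4 (0.926), Mrps12 (0.923) and Pcdhgc4 (0.907). For Mmp3 they were Ccn2 (0.934), Nes (0.932) and Scn7a (0.916), and for Mmp19 Pgm2 (0.918), Gm49339 (0.913) and Litaf (0.913). For Mmp9 they were Olfr851 (0.915), Cox17 (0.905) and Tut7 (0.882), for Mmp2 Gm11110 (0.904), Ppic (0.867) and Tbc1d19 (0.845), and for Timp2 Bard1 (0.880), Gm8213 (0.874) and Gm49051 (0.861).

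Other genes around the members were read from 6 lists. Of the 15 other matrix metalloproteinases, 6 passed the filter and none was called in any comparison by edgeR, DESeq2 or voom, with at most 1 at an unadjusted p below 0.05. Mmp25, a membrane-anchored protease of leukocytes, had the highest mean of them at 16.7 TPM, followed by Mmp23 at 4.79 TPM and Mmp16 at 0.553 TPM, and Mmp7, Mmp17 and Mmp15 lay at 0.185, 0.120 and 0.106 TPM. All 6 had a positive log2 fold change in the combination against CSF1Ri, with a median of 0.47 against 0.02 over all genes. Of 6 other inhibitors and clearance receptors, 3 passed the filter (Lrp1, Timp3 and Reck), and A2m was at 0 in all libraries. Lrp1, which clears Mmp9 and Mmp13 from outside the cell, fell in the combination against Control. Its level was 382 ± 13.4 CPM (SD, 3 libraries) in Control, 264 ± 27.3 under the antibody, 329 ± 22.7 under the chow and 242 ± 27.6 under both agents, a log2 fold change of -0.66 ± 0.12 (edgeR adjusted p = 0.0367) for the last against Control. Timp3, the inhibitor that stays bound to the matrix, had a mean of 14.0 ± 11.7 CPM with the combination and 2.37 ± 3.16 CPM in Control. It was not called by edgeR in any comparison, and by DESeq2 only in the combination against CSF1Ri. Its edgeR log2 fold change against Control was 1.46 ± 1.13 for the CD40 agonist and -0.46 ± 1.12 for CSF1Ri.

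Of 14 Adam and Adamts proteases, 12 passed the filter and 0 were called by edgeR in any comparison, with 1 to 5 at an unadjusted p below 0.05 and 0 to 3 called by DESeq2. Adam8 and Adam10, which shed proteins from the cell surface, had the highest mean TPM of them, 125 and 66.3. Adam8 stood at 491 ± 240 CPM with CSF1Ri and 205 ± 66.0 CPM with the combination. Of 7 genes of plasminogen activation, a route by which precursors of metalloproteinases are cut, 6 passed and 0 were called by edgeR, with 1 to 4 at an unadjusted p below 0.05 and 0 to 3 called by DESeq2. Plaur, the urokinase receptor, stood at 437 ± 14.3 CPM in Control, 511 ± 70.7 under the antibody, 939 ± 237 under the chow and 632 ± 211 under both agents. Serpinb2, a urokinase inhibitor, stood at 10.5 ± 3.65, 26.7 ± 10.3, 40.4 ± 25.9 and 22.8 ± 3.77 CPM in the same order. All 14 matrix proteins listed as substrates passed the filter and 0 were called by edgeR, with 0 to 5 at an unadjusted p below 0.05 and 0 to 4 called by DESeq2. Fn1, which encodes fibronectin, had a mean of 777 ± 154 CPM in Control and 1023 ± 105 CPM with the combination, and Spp1, which encodes osteopontin, 156 ± 32.0 and 435 ± 248 CPM. The combination was not the highest group for Fn1. Its edgeR log2 fold change was 0.90 ± 0.21 for CSF1Ri against Control, which DESeq2 called, and -0.50 ± 0.21 for the combination against CSF1Ri. That of Spp1 was 1.32 ± 0.62 for the CD40 agonist and -0.56 ± 0.61 for CSF1Ri, each against Control.

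Inducers of metalloproteinase genes and their transcription factors were the list with most calls. Like the other lists it was chosen with earlier results of these data known, so its counts beside the share of all genes are descriptions. The part of these genes in the members' values was not tested. All 17 passed the filter, and edgeR called 7, all of them higher, in the combination against Control (Tnf, Il6, Osm, Fos, Fosb, Jun and Junb), where 0.462% of all genes were called higher and 0.312% lower, with a median over the list of 1.01 against 0.00 over all genes. Without both libraries that stood apart edgeR called the same 7 genes, and DESeq2 called these 7 and Il1a, against 6.24% of its genes. Tnf, a cytokine that induces many members, stood at 22.3 ± 2.15 CPM in Control, 83.5 ± 28.9 under the antibody, 10.2 ± 2.86 under the chow and 168 ± 87.6 under both agents. Its log2 fold change was 2.91 ± 0.39 for the combination against Control (edgeR adjusted p = 0.0156) and 4.04 ± 0.41 against CSF1Ri (edgeR adjusted p = 0.00660). Jun, a subunit of AP-1, was the other gene of the list that edgeR called against CSF1Ri, where it rose by 1.29 ± 0.14 on the log2 scale (edgeR adjusted p = 0.00660), from 52.7 ± 4.28 to 129 ± 8.62 CPM. DESeq2 called 6 of the 17 in that comparison, against 9.94% of its genes, and edgeR 4 without both libraries that stood apart. Not all of these rose. Fosl2, among the 6 and the 4, and Tgfb1, among the 6, had negative log2 fold changes in the main edgeR fit (-1.29 and -1.51, neither called). Over the list 12 were positive and 5 negative there, with a median of 0.19. Fos, the partner of Jun, stood at 780 ± 169 CPM in Control and 1730 ± 287 CPM with the combination, a log2 fold change of 1.15 ± 0.21 (edgeR adjusted p = 0.0378). Fosb and Junb, further AP-1 subunits, rose by 1.37 ± 0.25 (edgeR adjusted p = 0.0367) and 1.29 ± 0.16 (edgeR adjusted p = 0.0145) against Control. The cytokines Il6 and Osm rose by 1.95 ± 0.32 (edgeR adjusted p = 0.0244) and 2.43 ± 0.40 (edgeR adjusted p = 0.0257). Il1b, another inducer, was not called and had a mean of 412 ± 267 CPM in Control and 1061 ± 739 CPM with CSF1Ri. In the test for any difference edgeR called 5 of the 17 (Tnf, Il6, Osm, Jun and Junb), against 1.2% of all genes. DESeq2 called 12, against 11.5% of its genes, voom 4, and edgeR without both libraries that stood apart 10.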

How the data were processed

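The members and the gene lists were chosen with earlier results of these data known. Per the labels' protocols, tumors were digested and depleted of dead cells, and libraries without strand were made from 50 ng of RNA and read as 75-bp pairs. The submitters' processing notes name STAR, HTSeq, DESeq2 and mm10. Per the file headers, however, the deposited files hold estimated counts and TPM per transcript, in the layout of a transcript quantifier that neither labels nor headers name.

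Transcripts were matched to GENCODE M21 (98.9% matched, and the rest held 0.378% to 0.436% of counts per library), estimated counts were summed per gene and rounded, and TPM was summed. edgeR 4.0.16 (R 4.3.3) was run with TMM scaling, filterByExpr and robust quasi-likelihood tests in 1 fit of all 12 libraries with a term per group (8 residual degrees of freedom). p-values were Benjamini-Hochberg adjusted over 16027 genes and called below 0.05. The script was checked on simulated data. DESeq2 1.42.0, limma 3.58.1 (voom), RLE scaling, no filter, the replicate number as a block and leaving out libraries were alternatives. CPM is TMM scaled, and log2 CPM used a prior count of 2.

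Fits are printed for members with an unadjusted p below 0.05, and for Timp1. From the lists, called genes, the 2 with the highest mean TPM and other metalloproteinases that passed the filter are named, and for each member the 3 genes with the highest correlation of log2 CPM, of which 1 each for Mmp8 and Mmp13 is not reported here. PCR reads are not independent molecules, so counting error is a lower limit.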

Additional observations from a re-analysis of the deposited data

How the results depend on the processing

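Of 270 refits of 15 changes of single members, each under 18 alternatives, 249 kept their direction and side of the threshold, 14 newly passed, 7 no longer passed (all Mmp12 in the combination against CSF1Ri) and 0 changed sign. These changes were chosen for an unadjusted edgeR p below 0.05 in the main fit, except those of Timp1. Only Mmp12 in the combination against CSF1Ri was called there, and it lost its call in 7 of its 18 refits. The others could keep their side by staying uncalled. RLE scaling and no filter on low counts moved no count of calls by over 1.5 times. The cause of the other changes was not tested.

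DESeq2 called 2 members for CSF1Ri against Control, 2 for the combination against Control, 3 for the combination against CSF1Ri and 4 for any difference, where edgeR called 0, 0, 1 and 0. Over all genes DESeq2 called 194 for the CD40 agonist, 408 for CSF1Ri, 933 for the combination, 275 for the combination against the CD40 agonist, 1486 for the combination against CSF1Ri, 178 for the interaction and 1692 for any difference. edgeR called 0, 2, 124, 0, 311, 0 and 193 in that order. limma voom called 5 genes for the CD40 agonist, 0 for CSF1Ri and 7 for the combination against the CD40 agonist, and 0 members for the combination against CSF1Ri.

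The replicate numbers do not pair the samples: deviations of 18 same-numbered pairs correlated at -0.0614 to 0.0604, 0 of them over 0.1, and the best match had the sample's own number in 17 of 36 cases. With the number as a replicate block, edgeR called 1 gene for the CD40 agonist, 59 for the combination, 121 for the combination against CSF1Ri and 49 for any difference. It called 0 members for the combination against CSF1Ri, where Mmp12 had 3.97 (edgeR adjusted p = 0.0650).

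Without both libraries that stood apart, edgeR called 3 members for CSF1Ri (Mmp8, Mmp13 and Timp1), 1 for the combination (Mmp12), 2 for the combination against CSF1Ri (Mmp12 and Timp1) and 3 for any difference. Over all genes it then called 38, 338, 232, 8, 632, 66 and 646 in the order above. Leaving out 1 library at a time, calls over all genes ranged from 0 to 7 for the CD40 agonist, 0 to 124 for CSF1Ri, 0 to 154 for the combination, 0 to 6 for the combination against the CD40 agonist, 22 to 429 for the combination against CSF1Ri, 0 to 15 for the interaction and 13 to 291 for any difference. Members called ranged from 0 to 1 for the combination against either Control or CSF1Ri and for any difference. The biological coefficient of variation was 61% over pools, and Mmp2 and Mmp3 were limited by low counts. The lowest combination ratio of Mmp to Timp TPM minus the highest ratio of the other groups was 0.633, and -2.58 with protein-coding transcripts alone, an alternative chosen after seeing the data.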
